A study of Mus musculus with 32 samples.

Results

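The sterol regulatory element-binding proteins (SREBPs) and the proteins that move and cut them were followed in brown adipose tissue (BAT) of mice lacking the glucose-responsive transcription factor ChREBP. Members were 7 of the 24523 gene names measured, namely Srebf1, Srebf2, Scap, Insig1, Insig2, Mbtps1 and Mbtps2. All probes that carry one of these gene names on the array were taken if they were also in the deposited expression table, which gave 15 of 37304 probes. The array holds 17 probes for these genes, and the 2 others, both of Mbtps2, passed the signal flags on 9 and 11 of 32 arrays and were left out.

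SREBPs are made as membrane proteins of the endoplasmic reticulum. SCAP escorts them to the Golgi in COPII vesicles when sterols are low, while the INSIG proteins hold SCAP and SREBP back when sterols are abundant. In the Golgi the site-1 protease (Mbtps1) and then the site-2 protease (Mbtps2) release the part that enters the nucleus, where SREBP-1c, an insulin-induced product of Srebf1, drives genes of fatty acid synthesis and SREBP-2, the product of Srebf2, those of cholesterol synthesis. Only RNA was measured here, so cleavage and nuclear entry of the proteins were not observed.

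RNA of BAT was hybridised to 32 Agilent 1-colour arrays in 4 groups of 8, namely total ChREBP KO mice, ChREBPβ KO mice and the wild-type (WT) littermates of each line. Total ChREBP KO mice are Mlxipl-null and lack the α and β isoforms, and ChREBPβ KO mice lack the β-specific exon 1b of Mlxipl, which was removed by CRISPR/Cas9 editing. Both deletions are whole-body, the methods describe male C57BL6/J mice, and age was not in the labels used here. All mice were fasted for 24 h and refed for 18 h with food and drinking water that held 20% glucose. Values are log2 intensities after quantile normalisation. Each KO group was compared with its own WT group, and the β effect minus the total effect was tested as the difference between both. The labels give separate samples and not how they were drawn from litters, so p-values measure the spread between these samples.

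The targeted gene separated the groups as labelled. Mlxipl intensity was 16.16 ± 0.12 in total-line WT, 13.68 ± 0.15 in total ChREBP KO, 16.35 ± 0.14 in β-line WT and 14.85 ± 0.10 in ChREBPβ KO (mean ± SD, n = 8), and no KO array overlapped its WT group. Whether this probe lies in the deleted exon was not examined. All 8 brown fat markers were detected, with Ucp1 means between 18.44 and 18.53 in the 4 groups. Of these 8, 3 were called lower and 2 higher in β-line WT than in total-line WT, with log2 differences from -1.3 to 0.45. Among all genes 14.1% were called lower and 24.8% higher there. The lines also differed in other tissue markers. The mean of 10 skeletal muscle markers was 15.2 ± 1.06 and 15.2 ± 0.50 in the WT and KO groups of the total line and 8.69 ± 2.94 and 7.94 ± 2.07 in those of the β line, and the mean of 8 liver markers ranged from 5.89 to 13.5 over all arrays. Neither list had a gene called in a KO comparison. In bulk tissue, fewer cells of a type and less RNA per cell cannot be told apart.

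Promoter windows are shown for Srebf1, Insig1, Insig2 and Mbtps2, whose RNA fell in total ChREBP KO, and for Srebf2, so that short motifs can be set beside the expression values. They are RefSeq windows of assembly GRCm38.p6, found by symbol for all 7 members, and each line gives 250 bases before an annotated start, read on the gene's own strand. Capitals mark CACGTG (the E-box core bound by ChREBP and other bHLH factors), CCAAT or its complement ATTGG (the NF-Y box), and TCACNCCA (a shortened sterol regulatory element).
Srebf1, chr11:60222582-60222831, minus strand: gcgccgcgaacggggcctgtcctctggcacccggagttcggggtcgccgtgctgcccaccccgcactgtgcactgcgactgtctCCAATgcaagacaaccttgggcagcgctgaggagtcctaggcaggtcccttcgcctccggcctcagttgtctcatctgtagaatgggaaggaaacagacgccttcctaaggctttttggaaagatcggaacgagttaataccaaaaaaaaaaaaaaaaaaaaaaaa
Srebf1, chr11:60220628-60220877, minus strand: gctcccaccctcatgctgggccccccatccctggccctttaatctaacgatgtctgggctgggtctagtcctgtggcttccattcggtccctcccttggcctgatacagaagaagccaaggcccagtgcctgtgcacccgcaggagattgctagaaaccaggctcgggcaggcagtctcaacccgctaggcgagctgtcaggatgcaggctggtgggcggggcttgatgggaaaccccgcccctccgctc
Srebf1, chr11:60210472-60210721, minus strand: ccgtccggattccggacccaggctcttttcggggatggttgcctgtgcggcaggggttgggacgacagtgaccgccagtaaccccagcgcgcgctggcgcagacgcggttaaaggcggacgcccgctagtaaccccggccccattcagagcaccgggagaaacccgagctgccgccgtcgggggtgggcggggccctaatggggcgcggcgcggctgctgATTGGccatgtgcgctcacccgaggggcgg
Srebf2, chr15:82147019-82147268, plus strand: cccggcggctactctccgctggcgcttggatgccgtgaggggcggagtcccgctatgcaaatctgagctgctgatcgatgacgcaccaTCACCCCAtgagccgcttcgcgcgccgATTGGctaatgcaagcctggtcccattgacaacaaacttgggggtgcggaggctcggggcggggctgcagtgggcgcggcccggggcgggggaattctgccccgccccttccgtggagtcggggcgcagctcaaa
Insig1, chr5:28071162-28071411, plus strand: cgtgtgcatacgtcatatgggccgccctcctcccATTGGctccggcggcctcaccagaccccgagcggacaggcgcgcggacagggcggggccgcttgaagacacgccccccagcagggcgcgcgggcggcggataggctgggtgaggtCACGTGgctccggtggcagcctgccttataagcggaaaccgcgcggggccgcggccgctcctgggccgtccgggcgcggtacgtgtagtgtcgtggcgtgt
Insig2, chr1:121332590-121332839, minus strand: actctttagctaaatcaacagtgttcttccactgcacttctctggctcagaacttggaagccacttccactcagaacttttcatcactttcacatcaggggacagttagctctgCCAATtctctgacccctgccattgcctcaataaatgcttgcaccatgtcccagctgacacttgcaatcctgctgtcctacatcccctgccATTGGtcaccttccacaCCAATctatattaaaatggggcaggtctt
Mbtps2, chrX:157598716-157598965, minus strand: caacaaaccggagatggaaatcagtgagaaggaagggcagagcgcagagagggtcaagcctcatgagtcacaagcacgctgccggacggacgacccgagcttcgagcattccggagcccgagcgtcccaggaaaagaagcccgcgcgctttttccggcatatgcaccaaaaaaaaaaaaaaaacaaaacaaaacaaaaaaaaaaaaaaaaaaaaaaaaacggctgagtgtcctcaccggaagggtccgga

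Windows of 300 bases, these 250 plus 50 after the start, were searched on both strands. The Insig1 window held 1 E-box, at position -101 from the start, and 1 CCAAT box at -216. Insig2 also has 3 annotated starts, and the outermost window, shown here, held 3 CCAAT boxes and the other two held 0. Srebf2 held 1 TCACNCCA, at -162, and 1 CCAAT box at -135. Srebf1 has 3 annotated starts, of which 2 had a CCAAT box, at -166 and -30, and 0 had an E-box. The Mbtps2 window had none of these motifs. Scap, whose RNA was not called in total ChREBP KO, also has an E-box, at -40 from its second annotated start, in the 30 bases shown here.
Scap, chr9:110333304-110333333, plus strand: cgccgccgggagCACGTGtggagggcggcg
Among all 32851 windows, 7.15% held CACGTG, 37.4% held CCAAT and 4.36% held TCACNCCA. The longer sterol element TCACNCCAC, which contains TCACNCCA and was present in 1.24% of windows, and the LXR direct repeat, in 0.0152%, were in 0 member windows. The spaced pair of E-boxes known as the carbohydrate response element was in 0 of all windows when searched with exact E-boxes. TCACNCCA was added after the windows had been read. A match describes letters in a window and not a bound site.

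In total ChREBP KO, Srebf1, Insig1, Insig2 and Mbtps2 were lower in every probe measured, Mbtps1 was lower in 1 of 4 probes, and Srebf2 and Scap were not called. With limma, 9 of 15 member probes were called lower at an adjusted p under 0.05 and 0 higher, with 1 more probe higher at an unadjusted p under 0.05. Over all 37306 probes 43.2% were called, 20.5% lower and 22.7% higher. Insig2 and Mbtps2 have 3 probes each, so the probes are not separate genes. By the brightest probe 5 of 7 members were called, against 44.1% of all genes, 21.1% lower and 23% higher. The groups did not overlap for 4 member probes, against 15.6% of all probes. The median log2 fold change of the 15 probes was -0.19, and that of all probes was 0.02. In ChREBPβ KO 0 of 15 member probes were called by limma, with 2 of them lower at an unadjusted p under 0.05, where 2.55% of all probes were called, 1.26% lower and 1.3% higher. No member probe separated the groups there, against 0.365% of all probes.

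**Figure D1:**
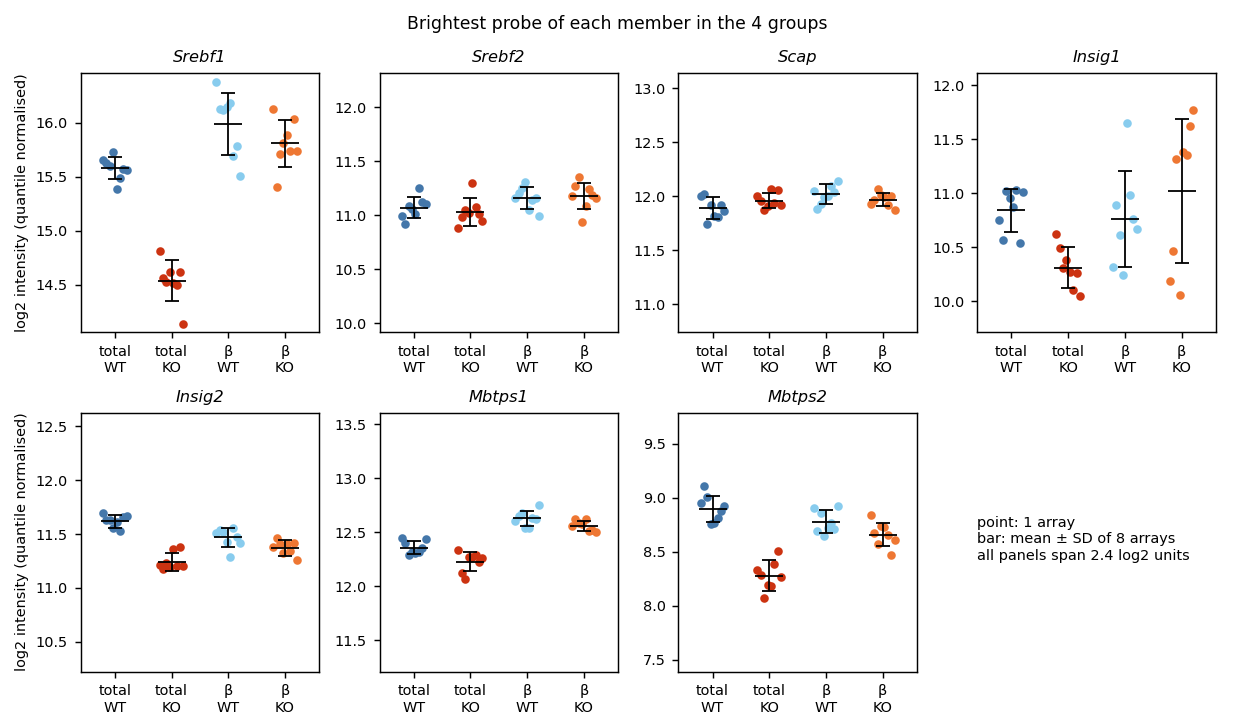
Log2 intensity of the brightest probe of each member on the 32 arrays, by group (total-line WT, total ChREBP KO, β-line WT, ChREBPβ KO). Points are arrays and bars are mean ± SD of 8 arrays. Srebf1, Insig2 and Mbtps2 separate total ChREBP KO from its WT group without overlap, and Insig1 is widely spread in the β line.

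Srebf1 encodes SREBP-1a and SREBP-1c, which its single probe (mm9 chr11:60013214-60013273) was not used to tell apart. In total-line WT its lowest, median and highest intensities were 15.39, 15.59 and 15.73, and in total ChREBP KO they were 14.14, 14.54 and 14.81. Every KO array was below every WT array, and the fitted log2 fold change was -1.04 ± 0.10 (SE, n = 8 per group, limma adjusted p 6.38e-10), which leaves 48.5% of the WT intensity. Within the 4 wash batches, which hold arrays of both groups, it was -1.1, -0.99, -1.3 and -0.81. In the β line the values were 15.51, 16.12 and 16.38 in WT and 15.41, 15.78 and 16.13 in KO, and 7 of 8 KO arrays lay inside the WT range. That log2 fold change was -0.18 (95% interval -0.40 to 0.03, limma adjusted p 0.461), within batches -0.16, -0.66, 0.1 and -0.05. The β effect minus the total effect was 0.86 ± 0.15 (SE, limma adjusted p 3.97e-05), where 24.1% of all probes were called, 12.4% with a lower and 11.7% with a higher β effect. By the brightest probe 25.2% of all genes were called.

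The level of Srebf1 also differed between the WT groups. β-line WT exceeded total-line WT by 0.41 ± 0.10 on the log2 scale (SE, limma adjusted p 0.00183), so the order of means was β-line WT (15.99), ChREBPβ KO (15.81), total-line WT (15.58) and total ChREBP KO (14.54). The first 2 of these were not told apart by the test, and ChREBPβ KO against total-line WT was not tested. The 3 genes whose deviations from the group means followed those of Srebf1 most closely over the 32 arrays were S1pr3 (r = 0.76), Mid1ip1 (r = 0.76) and Nav3 (r = 0.72). These arrays share slides and wash batches, and the values are a description.

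Srebf2 encodes SREBP-2. Its brighter probe (mm9 chr15:82035495-82035554) gave 10.92, 11.07 and 11.25 in total-line WT and 10.88, 11.01 and 11.30 in total ChREBP KO. The groups overlapped, with 6 of 8 KO arrays inside the WT range, and the log2 fold change was -0.03 (95% interval -0.15 to 0.09, limma adjusted p 0.694). In the β line the range was 10.99 to 11.31 in WT and 10.94 to 11.35 in KO, with a log2 fold change of 0.02 (95% interval -0.10 to 0.14). The intervals bound a change of the brighter probe to about 0.15 on the log2 scale in either direction, and hold for that probe alone. Deviations of the brighter and the dimmer probe from the group means had r = 0.36 with each other. The dimmer probe (A_51_P377508) gave -0.16 (95% interval -0.36 to 0.04) in total ChREBP KO and -0.00061 (95% interval -0.20 to 0.20) in ChREBPβ KO. The probes disagreed between the WT groups, where the brighter one differed by 0.09 (limma adjusted p 0.23) and the dimmer one stood at -0.43 in β-line WT relative to total-line WT (limma adjusted p 0.000631). The genes closest to the brighter probe over arrays were Sptbn4 (r = 0.87), Kif19a (r = 0.87) and Rbp3 (r = 0.87).

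Scap, the escort and sterol sensor, was not called in either KO comparison. Its probe (mm9 chr9:110287280-110287339) gave 11.74, 11.89 and 12.02 in total-line WT and 11.87, 11.95 and 12.07 in total ChREBP KO, and the groups overlapped. The log2 fold change was 0.08 (95% interval -0.01 to 0.17, limma adjusted p 0.17), and in ChREBPβ KO it was -0.05 (95% interval -0.14 to 0.04, limma adjusted p 0.735). The difference between both effects, -0.13 (95% interval -0.26 to 0.0043), was not called (limma adjusted p 0.157). Closest to Scap over arrays were Ric8b (r = 0.73), Tpgs2 (r = 0.69) and Agpat3 (r = 0.69).

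Insig1, itself a classical SREBP target and the retention protein whose RNA follows SREBP activity, fell in total ChREBP KO. Its probe (mm9 chr5:28404246-28404305) gave 10.54, 10.91 and 11.03 in total-line WT and 10.05, 10.29 and 10.62 in total ChREBP KO. All 8 KO arrays were below the WT mean and 1 lay inside the WT range, and the fitted log2 fold change was -0.53 ± 0.20 (SE, n = 8 per group, limma adjusted p 0.0313), and it was -0.59, -0.45, -0.57 and -0.59 within the 4 wash batches. The SD of Insig1 was 0.20 and 0.19 in the total-line groups and 0.44 and 0.67 in the β-line groups, and with the total-line arrays alone the limma adjusted p was 0.000119. The call was lost with slide as a fixed block (adjusted p 0.177). It was also lost without WT replicate 3, 6 or 8 or without KO replicate 6 or 8 of the total line, where the log2 fold change was between -0.51 and -0.50 and the adjusted p between 0.0513 and 0.058.

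In the β line Insig1 varied more between arrays of a group than between genotypes. WT arrays gave 10.24, 10.71 and 11.65, and KO arrays gave 10.06, 11.33 and 11.77. Among KO arrays, 3 lay at 10.06, 10.19 and 10.46 and the other 5 between 11.32 and 11.77, with no array in between. The log2 fold change was 0.25 (95% interval -0.16 to 0.67, limma adjusted p 0.674), and within wash batches it was -0.77, 0.5, 0.83 and 0.25. The β effect exceeded the total effect by 0.79 ± 0.29 (SE, limma adjusted p 0.0419), a call that was lost in 20 of the fits that left out 1 array each, with values from 0.68 to 0.79 there.

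**Figure D2:**
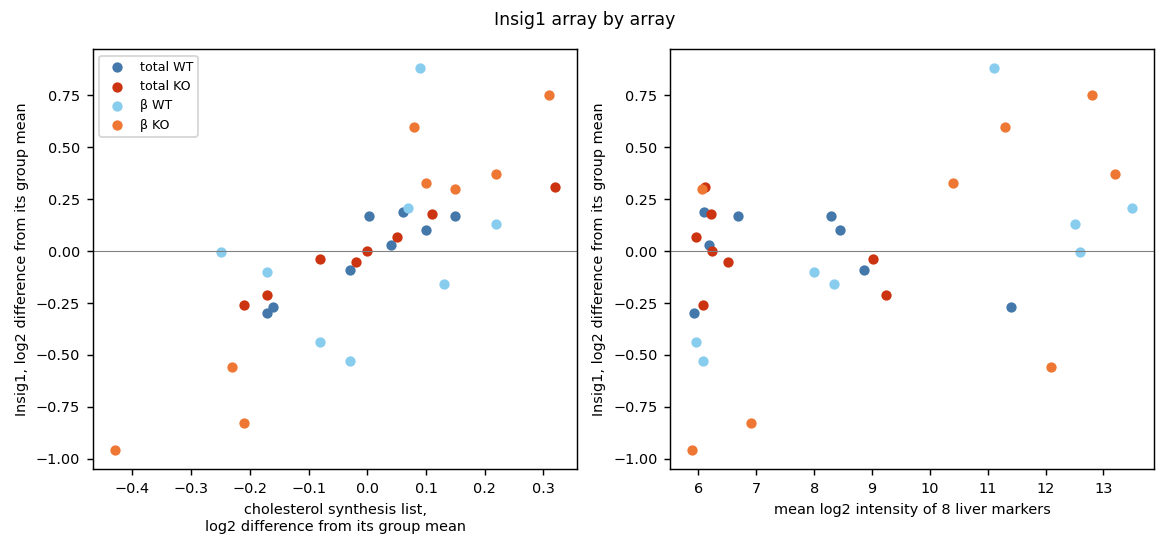
Insig1 on each of the 32 arrays as its log2 difference from its group mean, against the same difference for the mean of the 18 measured cholesterol synthesis genes (left) and against the mean log2 intensity of 8 liver markers (right). Colours are groups and points are arrays. Points rise to the right in the left panel, with r = 0.78, and the widest vertical spread is that of the β-line arrays.

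Insig1 moved with cholesterol synthesis genes from array to array. Its deviations from the group means had r = 0.78 with those of the cholesterol synthesis list mean over 32 arrays, and 0.76 without the 2 arrays farthest from the median. Within groups of 8 arrays r was 0.91 in total-line WT, 0.98 in total ChREBP KO, 0.36 in β-line WT and 0.95 in ChREBPβ KO. The closest genes were Cyp51 (r = 0.89), a lanosterol demethylase of cholesterol synthesis, Cdkn2b (r = 0.88) and Ptger3 (r = 0.86). Against the fatty acid synthesis list Insig1 had r = 0.57, and Srebf1 had r = 0.41 with that list and 0.31 with the cholesterol list. Srebf1 and Insig1 deviations had r = 0.04 with each other. Against the liver and muscle marker means Insig1 had r = 0.68 and 0.27 in β-line WT and 0.58 and 0.67 in ChREBPβ KO. In the total line r was -0.35 and -0.21 in WT and -0.42 and -6e-04 in KO, each over 8 arrays. With both marker means as covariates the log2 fold change of Insig1 became -0.48 for total ChREBP KO (0.0244 as limma's adjusted p) and 0.31 for ChREBPβ KO (0.445).

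Insig2, the second retention protein, was lower in total ChREBP KO in all 3 probes. The brightest (mm9 chr1:123201085-123201144) gave 11.53, 11.63 and 11.69 in total-line WT and 11.18, 11.21 and 11.38 in total ChREBP KO, with no overlap. Its log2 fold change was -0.38 ± 0.04 (SE, n = 8 per group, limma adjusted p 7.26e-09), or 76.8% of the WT intensity, and -0.4, -0.27, -0.48 and -0.3 within wash batches. A second probe that shares 46 bases with it, and so is no independent reading, gave -0.42 ± 0.05 (SE, limma adjusted p 6.11e-08), also without overlap. The third probe, whose listed span of mm9 chr1:123203517-123203752 is longer than its 60 bases, gave -0.19 ± 0.07 (SE, limma adjusted p 0.0187), with 2 KO arrays inside the WT range.

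In ChREBPβ KO the brightest Insig2 probe ranged from 11.26 to 11.46, against 11.29 to 11.56 in WT. All 8 KO arrays were below the WT mean, 7 of them inside the WT range. KO over WT was at -0.09 (95% interval -0.18 to -0.0062, limma adjusted p 0.311), and -0.14 (95% interval -0.24 to -0.03, limma adjusted p 0.181) in the overlapping probe. These were the 2 member probes with an unadjusted p under 0.05 in that comparison. The β effect minus the total effect was 0.29 ± 0.06 and 0.28 ± 0.07 (SE, limma adjusted p 0.00051 and 0.00466). All 3 Insig2 probes were lower in β-line WT than in total-line WT, at -0.16, -0.19 and -0.42 on the log2 scale (limma adjusted p 0.00371, 0.00436 and 7.6e-06). Closest to Insig2 over arrays were Cnpy2 (r = 0.74), Bet1 (r = 0.74) and Acot8 (r = 0.73).

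Mbtps1, the site-1 protease, changed little. Its brightest probe (mm9 chr8:122032056-122032115) gave 12.29, 12.34 and 12.45 in total-line WT and 12.07, 12.27 and 12.34 in total ChREBP KO, with 2 KO arrays inside the WT range. It stood at -0.13 ± 0.04 on the log2 scale, KO over WT (SE, limma adjusted p 0.0105). The other 3 probes were not called, at 0.17 (95% interval 0.01 to 0.33), -0.03 (95% interval -0.18 to 0.12) and -0.04 (95% interval -0.13 to 0.06), the last of them from a probe that shares 25 bases with the brightest. Over the mean of the 4 probes the log2 fold change was -0.0057 (adjusted p 0.921), and the call was also lost with slide as a fixed block (adjusted p 0.0928). In ChREBPβ KO the brightest probe gave -0.07 (95% interval -0.15 to 0.02). Mbtps1 also differed between the WT groups, at 12.54 to 12.75 in β-line WT against 12.29 to 12.45 in total-line WT, a log2 difference of 0.27 ± 0.04 (SE, limma adjusted p 4.9e-06). Wdr45 (r = 0.72), Chd6 (r = 0.70) and Hbp1 (r = 0.67) followed Mbtps1 most closely over arrays.

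By the brightest probe of each member, Mbtps2, the X-linked site-2 protease, had the second-largest fall among the members. Its brightest probe (mm9 chrX:153985834-153985893) gave 8.76, 8.90 and 9.11 in total-line WT and 8.07, 8.28 and 8.51 in total ChREBP KO, and the groups did not overlap. The log2 fold change was -0.62 ± 0.06 (SE, n = 8 per group, limma adjusted p 6.49e-10), which leaves 65% of the WT intensity, and -0.7, -0.75, -0.58 and -0.45 within wash batches. The dimmer probes gave -0.30 ± 0.07 and -0.29 ± 0.07 (SE, limma adjusted p 0.000708 and 0.000854), with 1 and 3 KO arrays inside the WT range. These falls were smaller than those of Insig1 (-0.53) and of the brightest Insig2 probe (-0.38). The brightest and the dimmest Mbtps2 probe passed the signal flags on 25 arrays and entered through the rule of 6 arrays in 1 group. For the brightest these were 6 total-line WT and 7 total ChREBP KO arrays, so the lower group alone would have let it in.

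In ChREBPβ KO the brightest Mbtps2 probe ranged from 8.47 to 8.84 and in its WT group from 8.65 to 8.92. The log2 fold change was -0.12 (95% interval -0.24 to 0.01, limma adjusted p 0.425), and the difference from the total effect was 0.51 ± 0.09 (SE, limma adjusted p 4.76e-05). The dimmer probes gave -0.10 and -0.09, with intervals that include 0. Capza2 (r = 0.70), Upf1 (r = 0.69) and Oxr1 (r = 0.69) were closest to Mbtps2 over arrays.

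**Figure D3:**
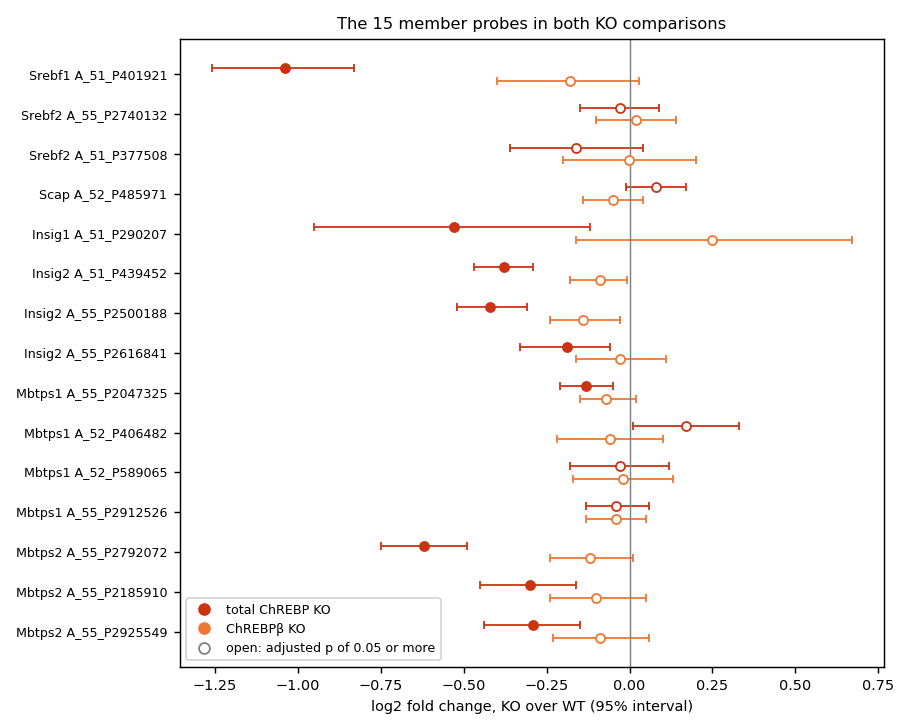
Log2 fold change of KO over WT with its 95% interval for the 15 member probes, in total ChREBP KO and in ChREBPβ KO. Filled points are called at a limma adjusted p under 0.05. The filled points, 9 in all, belong to total ChREBP KO and lie below 0, from -1.04 to -0.13.

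The 2 WT groups differed in 11 of 15 member probes, 6 lower and 5 higher in β-line WT, where 39.2% of all probes were called, 15% lower and 24.2% higher. By the brightest probe 4 of 7 members were called, against 38.9% of all genes. The groups did not overlap for 1 member probe, against 9.15% of all probes. Each WT group is the reference of its own KO comparison, so the 3 comparisons share arrays and their values for a member are given side by side only. All 10 skeletal muscle markers were lower in β-line WT, with a median log2 difference of -6.39, and so were all 4 macrophage markers, with a median of -0.61. Of 8 brown fat markers 3 were called lower and 2 higher in β-line WT, and 2 of 3 blood markers were lower. Called higher were 1 of 4 adipocyte, 1 of 3 white fat and 1 of 8 liver markers, the liver list with a median of 2.01. The part of the macrophage, brown fat, blood, adipocyte and white fat markers in the member values was not tested. With muscle and liver marker means as covariates, 1 member probe was called lower and 2 higher between the WT groups. The 4 members called without covariates, Srebf1, Scap, Mbtps1 and Insig2, were at 0.41, 0.13, 0.27 and -0.16 there by their brightest probes. With the covariates the same probes were at 0.57, 0.12, 0.24 and -0.19. Srebf1 and Mbtps1 stayed called (limma adjusted p 0.0247 and 0.0263), and the calls of Scap and Insig2 were lost (0.333 and 0.0912). The muscle mean differs between the lines, so the covariate fit cannot separate marker level from line. The share of all probes called in it is not given here.

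The genes that SREBPs act on were widely lower in total ChREBP KO. Of 13 genes of fatty acid synthesis, 12 were called lower and 0 higher by their brightest probe, with a median log2 fold change of -1.80. Over all genes 44.1% were called in that comparison, 21.1% lower and 23% higher. The largest falls were in Acly (-3.57 ± 0.09), which makes cytosolic acetyl-CoA, Acaca (-3.49 ± 0.08), the first committed step to fatty acids, and Me1 (-2.56 ± 0.12), which supplies NADPH (SE, limma adjusted p 3.54e-25, 5.66e-26 and 1.28e-17). Fads1 was not called (0.03). Several of these genes are also known direct targets of ChREBP, so the list is not specific to SREBP-1.

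Of 19 cholesterol synthesis genes 18 had a probe that passed the filter, and 14 were called lower and 1 higher, with a median of -1.13. Falls were largest in Sc5d (-1.93 ± 0.11), Sqle (-1.63 ± 0.13), the squalene epoxidase, and Mvd (-1.47 ± 0.18), each with n = 8 per group (SE, limma adjusted p 2.28e-15, 5.5e-12 and 2.93e-08). Ebp, a sterol isomerase, was higher by 0.30 ± 0.07 (SE, limma adjusted p 0.00124). Srebf2 RNA was not called in the same arrays. In ChREBPβ KO 2 genes of each list were lower, where 2.7% of all genes were called, 1.33% lower and 1.37% higher. They were Slc25a1 (-0.71 ± 0.13), the mitochondrial citrate carrier, and Elovl5 (-0.48 ± 0.13) for fatty acids, and Sqle (-0.64 ± 0.13) and Fdft1 (-0.55 ± 0.11), the squalene synthase, for cholesterol (SE, limma adjusted p 0.00204, 0.031, 0.00394 and 0.00448). The fatty acid count was 1 without β-line WT replicate 2, 6 or 8 or ChREBPβ KO replicate 1, 4 or 8.

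**Figure D4:**
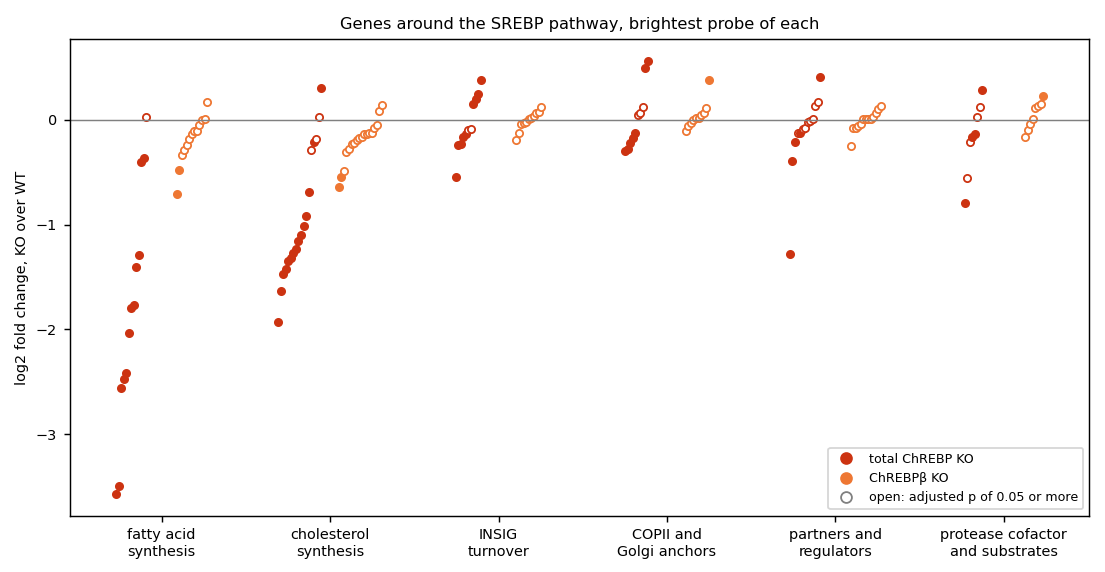
Log2 fold change of KO over WT for the genes of 6 lists around the SREBP pathway, by the brightest probe of each gene, in total ChREBP KO and ChREBPβ KO. Each point is a gene and filled points are called at a limma adjusted p under 0.05. The fatty acid and cholesterol synthesis lists reach -3.57 and -1.93 in total ChREBP KO, while the genes of INSIG turnover and COPII transport lie between -0.55 and 0.56 there.

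Genes that act on the members moved in both directions. Of 11 genes of INSIG turnover in the endoplasmic reticulum, 5 were called lower and 4 higher in total ChREBP KO, with a median of -0.10, where 44.1% of all genes were called, 21.1% lower and 23% higher. Among the changes were falls of Erlin2 (-0.55) and Nploc4 (-0.23) and rises of Erlin1 (0.38), Syvn1 (0.25) and Ufd1 (0.20). Of 10 measured genes of COPII transport and SCAP anchoring, 5 were lower and 2 higher against the same shares over all genes, with falls of Sec13 (-0.30), Sec24a (-0.28) and Sar1b (-0.22) and rises of Sec24d (0.56) and Sec24b (0.49). Of the 4 paralogues of the cargo adaptor Sec24, 1 was thus lower and 2 higher, and Sec24c was not called (0.05). The count of lower genes of this list was 3 without total-line WT replicate 2 or without total ChREBP KO replicate 2 or 4. Sec24d was also the 1 gene of this list called in ChREBPβ KO (0.38 ± 0.11 SE, limma adjusted p 0.0445). That call was lost in 17 of the 32 fits that left out 1 array each, namely total-line WT replicate 1, 3, 4 or 8, total ChREBP KO replicate 2, β-line WT replicate 1, 2, 3, 4, 6 or 8, or ChREBPβ KO replicate 2, 4, 5, 6, 7 or 8.

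Of 13 transcriptional partners and regulators of the SREBPs, 4 were lower and 1 higher in total ChREBP KO, beside 21.1% lower and 23% higher among all genes. Lpin1, whose protein restrains nuclear SREBP, fell by 1.28 on the log2 scale (limma adjusted p 4.69e-14), and Nfyb (-0.39), Usf2 (-0.21) and Nfyc (-0.13) were lower. Nr1h3, the LXRα that activates Srebf1, was higher by 0.41 (limma adjusted p 1.43e-06). In ChREBPβ KO limma called 0 of these 13 genes, with 2 at an unadjusted p under 0.05, and 0 of the 11 INSIG turnover genes, with 3. Of 8 measured genes for the cofactor and other substrates of both proteases, 3 were lower and 1 higher in total ChREBP KO, near the 44.1% of all genes called. Gnptab, which the site-1 protease activates, fell by 0.79 on the log2 scale, Creb3 (-0.16) and Creb3l2 (-0.14) were lower, and Atf6, the stress sensor cut by both proteases, was higher by 0.28. Without total-line WT replicate 6 the count of higher genes was 2. Creb3l2 was higher in ChREBPβ KO (0.23 ± 0.06 SE, limma adjusted p 0.0295), a call lost without β-line WT replicate 1, 3, 4, 6 or 8 or ChREBPβ KO replicate 4, 5 or 7.

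Macrophage markers moved with the total ChREBP KO comparison, where 44.1% of all genes were called, 21.1% lower and 23% higher. All 4 (Cd163, Adgre1, Cd68 and Csf1r) were called lower, with log2 fold changes from -0.99 to -0.53, and their mean was 9.68 ± 0.32 in total-line WT and 8.95 ± 0.14 in total ChREBP KO (SD, n = 8), with the lowest WT array at 9.27 and the highest KO array at 9.15. Of 4 adipocyte markers Adipoq (0.65), Cidec (0.52) and Plin1 (0.32) were higher. Plin1 was also higher in ChREBPβ KO (0.23), where 2.7% of all genes were called. Of 8 brown fat markers Dio2 (2.19), Ppargc1a (1.18), Cpt1b (0.45) and Cox8b (0.40) were higher and Elovl3 (-3.16) and Prdm16 (-0.29) lower in total ChREBP KO. In ChREBPβ KO limma called 0 of these 8, with 3 at an unadjusted p under 0.05 and log2 fold changes from -1.15 to 1.09. Lep, of 3 white fat markers, was higher in total ChREBP KO (0.30). Limma called 0 of 3 blood markers, with 2 at an unadjusted p under 0.05, and 0 of 8 liver and 0 of 10 muscle markers, with 0 at that level. With muscle and liver marker means as covariates, Srebf1 was at -1.06 in total ChREBP KO and Mbtps2 at -0.62. Insig1 was at -0.48, Insig2 at -0.38 and Mbtps1 at -0.13 in that fit. The part of the macrophage, adipocyte, brown fat, white fat and blood markers in the member values was not tested.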

How the data were processed

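Total RNA of BAT was labelled with Cy3 and hybridised to 32 Agilent arrays of the mouse 8x60K design. Per the labels, the deposited scanner files came from Agilent Feature Extraction 10.10.1.1 and hold the median intensity of each spot, not normalised between arrays. A deposited table holds the authors' log2 values, filtered, quantile normalised and reduced to 1 value per probe (48 empty values) which was used to choose members and as an alternative. Probe coordinates in the files are of build mm9.

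Values were recomputed as the study's methods describe. Non-control spots had to pass the found, positive and above-background flags on 26 arrays, or on 6 arrays of any group, which left 39985 of 59305 spots. Median intensities were quantile normalised, reduced to the median of replicated probes and log2 transformed, giving 37306 probes under 24523 gene names, with a mean absolute difference of 0.0113 from the deposited table. With limma 3.58.1 in R 4.3.3, 4 group means were fitted over 32 arrays without covariates, and the p-values (both tails) of each comparison were adjusted by Benjamini-Hochberg across every probe, with 0.05 as threshold. The procedure was tested on simulated data. A gene stands for its brightest probe.

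Arrays have no depth in reads. The share of spots flagged as well above background was 64.4% to 71.1%, 0 spots were saturated, and 8 arrays per group limit the precision. The arrays lie on 15 slides in 4 wash batches, scanned on 2 days. Each wash batch holds arrays of every group. Alternatives covered signal, scaling, filter, batch, slide, pairing by replicate number, array weights, marker covariates, left-out arrays and the mean over probes. Named genes were all member probes, the 3 called genes with the largest change per list, direction and KO comparison, every called gene of a list with at most 5 calls, and the 3 genes most like a member by Pearson r of deviations from group means. Fads1 was named after its value was seen. Some genes that the rule names are not reported here. Members, lists and motifs were chosen with earlier results of these data known.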

Additional observations from a re-analysis of the deposited data

Results flagged for a closer look

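The highest or lowest of 8 arrays stood apart from the rest of its group in 2 of 60 groups of member probes tested, and chance gives such a gap in about 1 of 20. Srebf1 in total ChREBP KO replicate 8 was at 14.14, with the nearest array of the group at 14.50. Without that array the log2 fold change of Srebf1 in total ChREBP KO was -0.99. Srebf2 (brighter probe) in total ChREBP KO replicate 5 was at 11.30, with the nearest at 11.08.

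The KO effects of both lines differed in 5 of 15 member probes by the limma contrast of the β effect minus the total effect, where 24.1% of all probes were called, 12.4% lower and 11.7% higher. The differences were 0.86 for Srebf1, 0.79 for Insig1, 0.29 and 0.28 for the overlapping Insig2 probes and 0.51 for the brightest Mbtps2 probe, all of them less negative or more positive in the β line. Each deletion was present in a single line, so line and deletion cannot be told apart in this comparison. The lines also differ in skeletal muscle markers.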

How the results depend on the processing

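Over 1270 values of member genes under alternative settings, 1223 kept their direction and side of the threshold, 38 lost a call, 1 gained one and 8 changed sign. The count of member probes called lower in total ChREBP KO ranged from 7 to 9 over the alternatives and from 8 to 9 over left-out arrays, and ChREBPβ KO had 0 in every setting tried. Srebf1, Insig2 and Mbtps2 in total ChREBP KO, and their differences between lines, kept their calls in every setting tried. The count called higher in total ChREBP KO was 1 with the processed signal or the median intensity scaled to the 75th percentile, with normexp background correction, with array weights and with the replicate block, and ranged from 0 to 1 over left-out arrays. The difference between KO effects had 1 probe called lower with the median intensity scaled to the 75th percentile, and from 0 to 1 over left-out arrays. Between the WT groups the number higher was 3 when slide was a fixed block and 3 to 5 over left-out arrays, and with muscle and liver covariates 2 were higher and 1 lower.

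Sign changes were in small values, apart from Srebf2 and Insig1 between the WT groups, at 0.09 and -0.08 in the main fit. With slide as a fixed block Srebf2 was at 0.02 in total ChREBP KO and -0.02 for the difference, and Scap at 0.03 in ChREBPβ KO. Averaged over its probes, Srebf2 was at -0.17 between the WT groups (limma adjusted p 0.0381) and Mbtps1 at -0.04 for the difference. Insig1 between the WT groups was at 0.29 with marker covariates. Srebf2 in ChREBPβ KO was at -0.0044 without β-line WT replicate 8 and at -0.005 without β-line KO replicate 3, in a range of -0.005 to 0.05 over left-out arrays. The causes were not tested. Of 2184 counts of genes in lists under alternatives, 132 moved by over 1.5 times. With slide as a fixed block 0 fatty acid and 0 cholesterol synthesis genes were called lower in ChREBPβ KO, and in total ChREBP KO 3 COPII genes and 2 partners were lower and 1 INSIG turnover gene was higher. The call of Insig1 for the difference was lost without the dim-probe filter (limma adjusted p 0.057) and under the fixed slide block (0.0855), and that of Scap between the WT groups in 5 of 13 alternatives, with values from 0.11 to 0.14 over all of them.

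Replicate numbers did not pair the samples. Same-numbered deviations correlated between -0.3 and 0.08 in the total line and between -0.2 and 0.53 in the β line, and 0 of 8 and 1 of 8 samples matched their own number best. The replicate block left 9 probes lower in total ChREBP KO, 0 called in ChREBPβ KO and 5 higher for the difference. The block could not be fitted between the WT groups. Intensity of different probes cannot be compared, and signal near background limits the dim Mbtps2 probes.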
